A study of Mus musculus with 7 samples.

Results

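Kupffer cells are the macrophages that live in the liver sinusoids, where they clear bacteria, complement-coated particles, dying cells and worn red cells from the blood through receptors on their surface. The genes described here were chosen by name as receptors and markers of these cells: Marco, Vsig4, Cd163, Clec4f, Timd4, Cd5l, Folr2, Csf1r, Adgre1 and Cd68. Probes on the array carried the symbol of 9 of these 10 genes, out of 19057 genes with a probe, and 15 probes measured them. Of these 15 probes, 12 lay above the upper bound of the background on at least 3 arrays, and they measured 8 genes. Cd5l, which encodes a secreted protein of macrophages rather than a receptor, was above that bound on 0 arrays, and no probe carried the symbol Cd68, which was not analysed here.

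The samples were whole mouse liver taken 12 h after partial hepatectomy (PHx), surgery that takes away lobes and sets off regeneration of what is left, and each was hybridised to 1 single-colour Illumina bead array. The 4 KO samples came from mice with the genotype LTBR KO, deficient in the lymphotoxin beta receptor, a member of the tumour necrosis factor receptor family, and the 3 WT samples came from wild-type mice. All were of strain C57BL/6 and all had PHx, so genotype differences of the unoperated liver and of its response to surgery cannot be told apart. The age of the mice, the targeting construct and whether each sample was a separate animal were not given in the sources used here, so p-values measure only the spread between these samples. Probe intensities had a median of 91.1 and spanned 72.6 to 30878 in each of the 7 samples. The upper bound of the background was set at 93.5, or 4.99 on the background-corrected log2 scale used below. Ltbr itself, measured by 1 probe, was lower in every KO sample than in every WT sample (log2 difference -1.04, limma adjusted p = 0.088). In whole tissue, the number of Kupffer cells and the RNA of a gene per Kupffer cell cannot be told apart.

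Marco, Vsig4 and Cd163 were the genes whose KO values all lay above the WT values, and the 250 bases upstream of their start sites are shown for that reason. The sequences are those of RefSeq on GRCm38.p6, at chr1:120505025-120505274 (minus strand) for Marco, chrX:96293439-96293688 (minus strand) for Vsig4 and chr6:124304401-124304650 (plus strand) for Cd163. Each is written 5′ to 3′ along the gene's own strand, and capitals mark GAGGAA. These letters hold the core that PU.1 and other ETS factors bind.

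Marco: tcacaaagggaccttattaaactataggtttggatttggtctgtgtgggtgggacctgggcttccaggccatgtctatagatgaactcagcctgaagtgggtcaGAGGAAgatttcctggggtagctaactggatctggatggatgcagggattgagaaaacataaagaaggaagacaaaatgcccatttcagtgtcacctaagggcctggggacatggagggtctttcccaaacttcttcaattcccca
Vsig4: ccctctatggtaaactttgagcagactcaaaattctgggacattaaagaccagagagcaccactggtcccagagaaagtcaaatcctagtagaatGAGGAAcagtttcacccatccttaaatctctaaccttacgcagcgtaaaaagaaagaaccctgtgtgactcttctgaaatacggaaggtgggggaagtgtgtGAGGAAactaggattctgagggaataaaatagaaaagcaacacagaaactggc
Cd163: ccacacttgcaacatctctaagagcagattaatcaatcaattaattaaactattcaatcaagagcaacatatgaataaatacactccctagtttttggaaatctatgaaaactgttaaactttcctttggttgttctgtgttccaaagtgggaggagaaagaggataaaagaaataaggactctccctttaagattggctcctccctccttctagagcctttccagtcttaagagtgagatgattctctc

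The letters GAGGAA, read on both strands, occurred at position -146 from the start site of Marco and at -155 and -53 of Vsig4. They occurred at no position in this window of Cd163. GAGGAA is a common string, found in 23.3% of 32851 promoter windows of the same length. The letters TGCTGAC, a MAF half-site, also read on both strands, occurred in 3.81% of all windows and in none of these 3. Promoter entries existed for 8 of the 10 listed genes.

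Among the scavenger and complement receptors, the values were higher in KO. Marco, a scavenger receptor that binds bacteria and modified lipoproteins, had log2 intensities of 5.64, 5.39 and 6.47 in WT replicates 1 to 3 and of 7.19, 6.92, 7.55 and 8.49 in KO replicates 1 to 4. The WT samples thus lay close above the background bound and every KO sample lay higher, KO replicate 4 the highest. The log2 difference was 1.71 (SE 0.35, 95% interval 0.94 to 2.47), 3.26-fold on the background-corrected scale, and it ranked 60th of 13266 genes or unnamed probes by p. It did not pass the threshold over all of them (limma adjusted p = 0.088), while the exact two-sided permutation test of this gene alone gave p = 0.029, the smallest that 35 splits of 4 against 3 samples allow. Without background correction the log2 difference of Marco was 1.06.

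Vsig4, the complement receptor that captures C3-coated particles from the sinusoidal blood, had log2 intensities of 8.81, 8.80 and 8.73 in WT and 9.34, 9.43, 9.09 and 10.25 in KO. Values of the WT samples nearly coincided, those of KO were spread out with replicate 4 well above the rest, and the groups did not overlap. The log2 difference was 0.75 (SE 0.24), or 0.51 without KO replicate 4. Cd163, the receptor that takes up haemoglobin bound to haptoglobin, had log2 intensities of 7.81, 7.48 and 7.64 in WT and 8.45, 8.06, 7.90 and 8.23 in KO. Both groups were close but did not overlap, and KO replicate 1 rather than KO replicate 4 was the highest. The log2 difference was 0.52 (SE 0.18). Neither Vsig4 nor Cd163 passed over all genes (limma adjusted p = 0.19 and 0.21), and each had an exact permutation p of 0.057. A second probe of Cd163 was above the background bound on 1 array only and was not tested.

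The receptors for dying cells and sugars showed smaller differences. Timd4, which binds phosphatidylserine on dying cells, had log2 intensities of 5.97, 5.55 and 5.68 in WT and 5.84, 6.17, 5.98 and 6.82 in KO. Of its KO samples 3 lay above the highest WT sample, and the log2 difference of 0.47 (SE 0.23) fell to 0.27 without KO replicate 4. Clec4f, a C-type lectin that binds galactose-bearing glycans and that in mouse liver marks Kupffer cells, had log2 intensities of 8.26, 8.19 and 7.59 across the WT samples and 8.31, 8.22, 8.27 and 8.12 across the KO samples. The 4 KO samples and WT replicates 1 and 2 lay together, and WT replicate 3 stood below them. The log2 difference was 0.22 (SE 0.19, 95% interval -0.19 to 0.62), and it was 0.00 without WT replicate 3.

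The growth factor receptor, the folate receptor and the general macrophage marker also overlapped between the groups. Csf1r, the receptor for CSF1 and IL-34 on which macrophage survival depends, had log2 intensities of 7.44, 7.06 and 6.45 in WT and 6.80, 7.23, 7.09 and 7.90 in KO. Its log2 difference of 0.27 had a 95% interval of -0.34 to 0.88, and became 0.01 without WT replicate 3 and 0.06 without KO replicate 4. Adgre1, which encodes the adhesion receptor long used as a general marker of mouse macrophages, had log2 intensities of 7.61, 7.004 and 5.86 in WT and 7.01, 7.32, 7.43 and 8.07 in KO. Only KO replicate 4 exceeded WT replicate 1, and WT replicate 3 was the lowest by more than 1 log2 unit. The log2 difference of Adgre1, 0.63 (SE 0.36), was 0.15 without WT replicate 3, 0.43 without KO replicate 4 and 1.03 without WT replicate 1. Folr2, the folate receptor beta of resident macrophages, had log2 intensities of 6.43, 6.41 and 6.41 in WT and 6.22, 6.36, 6.76 and 6.85 in KO. Its KO samples fell on both sides of WT, with a log2 difference of 0.13 (95% interval -0.27 to 0.54) that was 0.03 without KO replicate 4.

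**Figure D1:**
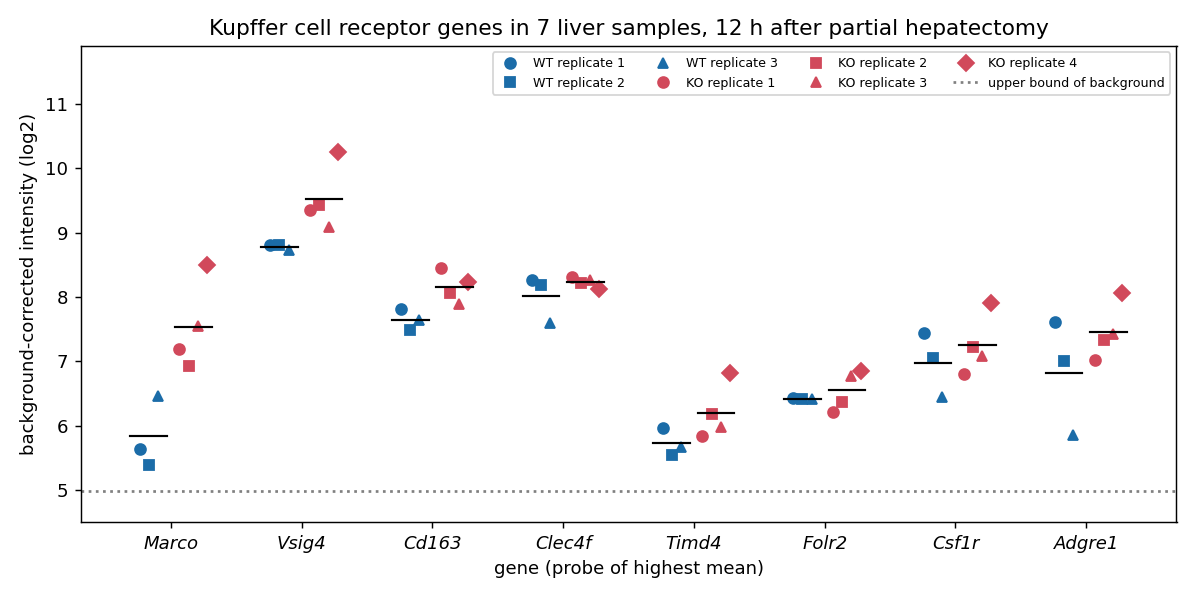
Background-corrected log2 intensity (vertical axis) of the 8 measured genes, 1 point per array, for 3 WT and 4 KO samples, with black lines at the group means and a dotted line at the upper bound of the background, 4.99. The KO points of Marco, Vsig4 and Cd163 all lie above the WT points, and those of the other 5 genes overlap with WT.

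Taking the 8 genes together, all 8 KO means lay above the WT means, where 54.2% of all genes did, and the median log2 difference was 0.49 against 0.03 over all genes. None of the 8 passed limma's threshold of an adjusted p under 0.05, which 0.0678% of all genes or unnamed probes passed (9 of 13266, with 0.00754% higher and 0.0603% lower in KO). At an unadjusted p under 0.05 there were 3, Marco, Vsig4 and Cd163, all higher in KO, against 8.21% of all genes higher in KO by that measure and 14.7% in either direction. These same 3 had groups that did not overlap with KO higher, as did 7.59% of all genes, while 5.46% had every KO value below WT and none of the 8 did. The genes had been proposed with results of these arrays known and share the same 7 arrays, so these counts describe the group and test nothing about it. For the 5 genes whose groups overlapped, the 95% intervals reached from -0.34 to 1.42, so that differences of more than 2-fold in favour of KO remained within the interval of Adgre1.

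Several genes had further probes. Clec4f differed by 0.22 at the probe used and by 0.03 at its dimmer probe, and Folr2 by 0.13 and 0.09. The 3 probes of Adgre1 gave 0.63, 0.48 and -0.01, the last of them from a probe above the background bound on 4 arrays. Of the 12 probes tested none passed over all 18891 kept probes, of which 0.0635% passed. The second probe of Csf1r was above the bound on 2 arrays and was not tested.

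**Figure D2:**
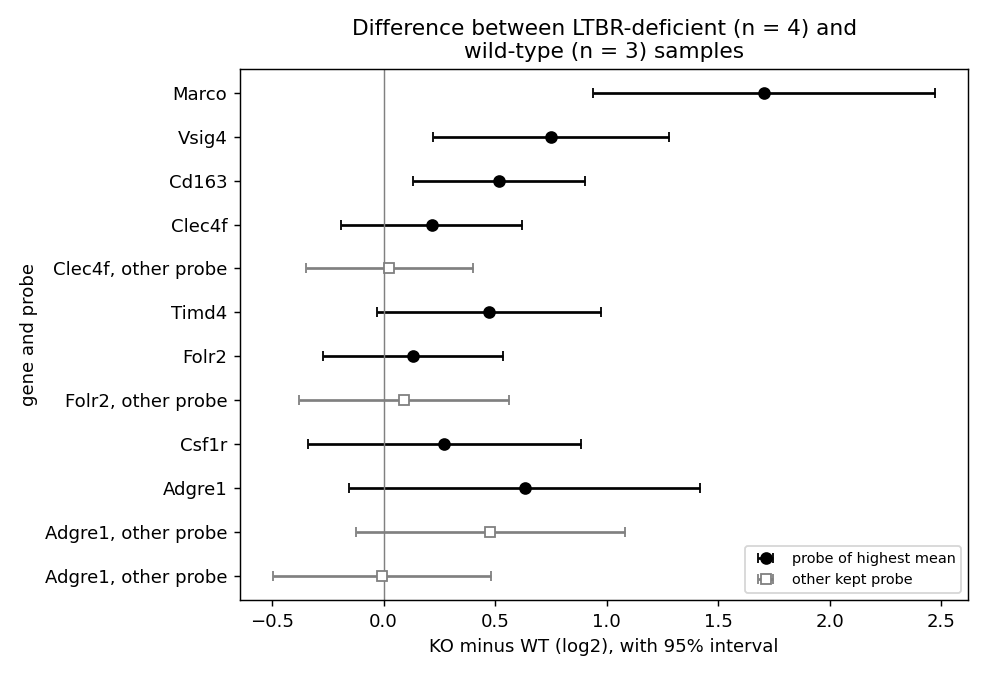
Log2 difference, KO minus WT (horizontal axis), with its 95% interval from limma for the probe of highest mean of each gene (filled circles) and for the other kept probes (open squares). The intervals of Marco, Vsig4 and Cd163 lie above 0, before adjustment over all genes, and the third probe of Adgre1 lies at -0.01.

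Single arrays stood out across the members. KO replicate 4 held the highest value of 6 of the 8 genes, all but Cd163 and Clec4f, and was the highest array for 12.6% of all genes. WT replicate 3 held the lowest value of 4 of the 8, Vsig4, Clec4f, Csf1r and Adgre1, and was the lowest array for 16.5% of all genes. The median deviation of the 8 genes from their own means was 0.79 in KO replicate 4 and -0.41 in WT replicate 3, and between -0.30 and 0.12 in the other 5 arrays. The median over all genes stayed between -0.02 and 0.02 on every array.

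All 28 pairs of members had a positive Pearson's r, the lowest 0.01 for Cd163 and Folr2 (exact permutation p = 0.97). Spearman's rho was below 0 for that pair (-0.14, exact permutation p = 0.78) and for Clec4f and Folr2 (-0.25, exact permutation p = 0.59), and for no other. Without KO replicate 4 and WT replicate 3, r of Vsig4 and Csf1r was -0.42, while some other pairs stayed above 0. The share of positive pairs over all genes was not counted. Csf1r and Adgre1 followed each other most closely, with Pearson's r = 0.94 (exact permutation p = 0.004, adjusted p over the pairs = 0.11) and Spearman's rho = 0.93 (exact permutation p = 0.007) over the 7 arrays. Without KO replicate 4 and WT replicate 3, the arrays farthest from the median of Csf1r, r was 0.84. Marco went with Csf1r and Adgre1 less closely, at r = 0.38 and 0.41 (exact permutation p = 0.41 and 0.37, rho = 0.32 and 0.54 with exact permutation p = 0.50 and 0.24), and at -0.27 and 0.02 without KO replicate 4 and WT replicate 2. The lowest adjusted p of the 28 pairs was 0.11, so no pair passed, and 5 pairs had an unadjusted exact p under 0.05. The pooled values include the difference between KO and WT, and for Csf1r and Adgre1 the r of deviations from the group means was 0.94, against 0.22 for Marco and Csf1r and -0.01 for Marco and Adgre1.

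**Figure D3:**
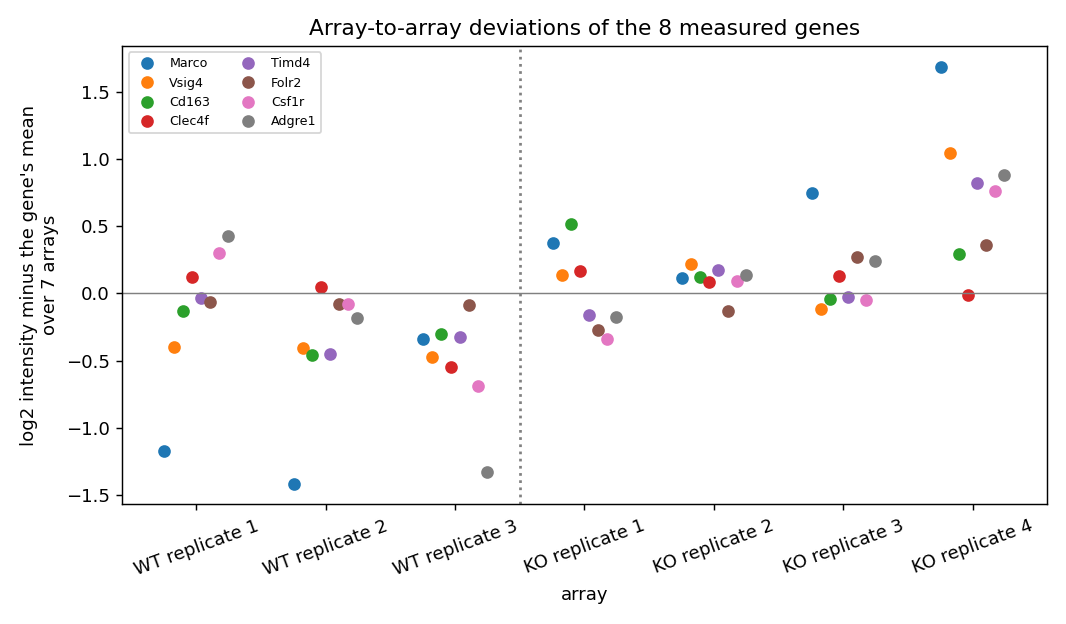
Deviation of each of the 8 genes from its own mean over the 7 arrays (vertical axis, log2), 1 point per gene and array, with a dotted line between WT and KO. In KO replicate 4 the median of the 8 deviations is 0.79 and Marco is the highest, and in WT replicate 3 the median is -0.41 and Adgre1 is the lowest.

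With KO replicate 4 and WT replicate 3 left out together, all 8 differences were smaller or the same. These arrays were chosen after seeing the data, because they held the highest and the lowest values of many members, so lower differences follow in part from the choice. The differences of Marco (1.71), Vsig4 (0.48) and Cd163 (0.49) were above 0. With all 7 arrays their groups did not overlap, so leaving arrays out could neither make them overlap nor turn these differences below 0. Marco then passed over all genes (limma adjusted p = 0.046), whereas its adjusted p over all alternatives ran from 0.015 to 0.40. Csf1r (-0.21) and Adgre1 (-0.05) turned below 0, Clec4f was at 0.04 and Folr2 at 0.03, and Timd4 was at 0.24. The median of the 8 was 0.14.

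**Figure D4:**
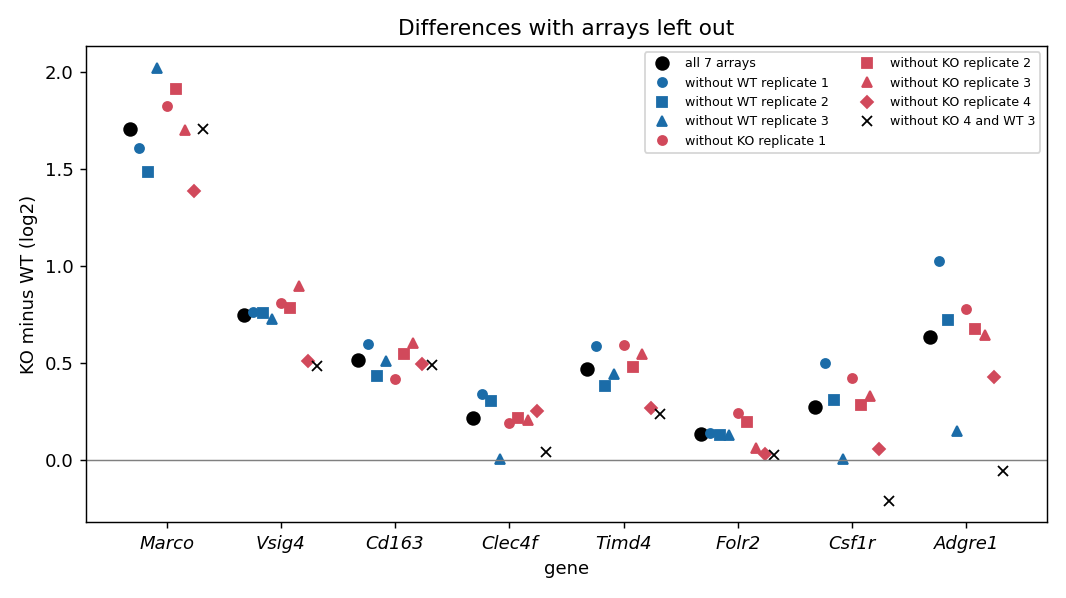
Log2 difference, KO minus WT (vertical axis), of the 8 genes with all 7 arrays (black circles), with each array left out in turn (coloured symbols) and without KO replicate 4 and WT replicate 3 together (crosses). Marco stays between 1.39 and 2.02 with 1 array left out, and Csf1r and Adgre1 are below 0 with both arrays left out.

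Cd163 and Clec4f lie on chromosome 6, as does Ltbr, 31 and 206 tested genes away from it. The other measured members lie elsewhere. For Cd163, loss of the receptor and an inherited difference in the chromosome around the targeted gene cannot be told apart.

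Other genes of Kupffer cells gave a mixed picture. Of 18 tested, 14 had a higher KO mean, with a median log2 difference of 0.20, and 0 passed over all genes. At an unadjusted p under 0.05 by limma there were 3, all with higher KO means. Their share was near the 14.7% of all genes in either direction, and above the 8.21% of all genes higher in KO. Slc40a1, the iron exporter ferroportin, had the smallest p, with log2 intensities of 10.10, 9.97 and 9.42 in WT and 10.78, 10.84, 10.66 and 11.84 in KO. All KO samples lay above WT (log2 difference 1.201, SE 0.28, limma adjusted p = 0.11), the only gene of this list with groups that did not overlap. Id3, a transcription regulator of Kupffer cell identity (0.58, SE 0.22), Ctss, the lysosomal protease cathepsin S (0.58, SE 0.25), and Fcna, the lectin ficolin A (0.64, SE 0.29), did not pass. The value of Ctss was 0.35 without WT replicate 3, and that of Fcna was 0.37 without WT replicate 1. The complement genes C1qa, C1qb and C1qc, which macrophages make, differed by -0.03, 0.23 and 0.31. Siglec1 was not above the background bound on enough arrays to be tested.

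Other phagocytic receptors of macrophages had 16 of 22 KO means above WT and a median log2 difference of 0.11, with 0 past the threshold and 2 at an unadjusted p under 0.05, a smaller share than the 14.7% of all genes. These were Scarb1, the receptor for high-density lipoprotein, which hepatocytes and other cells express too (-0.74, SE 0.26), and Clec4n, the lectin dectin-2 (0.50, SE 0.19), whose groups did not overlap. Stab1, a scavenger receptor shared with sinusoidal endothelium (-0.37, SE 0.17), and Cd14, the co-receptor for endotoxin (0.60, SE 0.32), did not pass. Scarb1 was at -1.11 without WT replicate 1, and Cd14 was at 0.33 without KO replicate 3 and 0.39 without WT replicate 3. Clec4n was at 0.21 without background correction, and Stab1 at -0.15 as the mean of its probes. The macrophage scavenger receptor gene Msr1, which like Marco belongs to class A, differed by -0.20 (SE 0.19) and the mannose receptor gene Mrc1 by 0.31 (SE 0.23).

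Genes of the CSF1 receptor pathway and of macrophage transcription control had 13 of 17 KO means above WT and a median log2 difference of 0.20. By limma 0 passed the threshold and 3 had an unadjusted p under 0.05, a share near the 14.7% of all genes. These 3 were Rxra, Id3 and Csf1, and Id3 stands on the Kupffer cell list too. Csf1, the ligand, was dim, with log2 intensities of 5.004, 4.81 and 4.999 in WT and 5.55, 5.07, 6.11 and 5.23 in KO. These WT values lay at the background bound, where the size of a log2 difference depends on the background correction. The log2 difference of Csf1 was 0.55 (SE 0.23), 0.22 without background correction and 0.35 without KO replicate 3. Rxra, a nuclear receptor gene, lay below WT in all KO samples (-0.55, SE 0.16) and Cebpb, a transcription factor gene, lay above WT in all of them (0.37, SE 0.17), and neither passed (limma adjusted p = 0.15 and 0.35). Nr1h3, which encodes LXR-alpha, a nuclear receptor that Kupffer cells depend on, differed by 0.11, and the macrophage transcription factor genes Irf8 and Spic by 0.20 each. Il34, the second ligand of CSF1R, and Spi1, which encodes PU.1, were not above the bound on enough arrays.

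The partners of the receptors were mixed. Of 13 genes for ligands and for steps after uptake, 4 had a higher KO mean and the median log2 difference was -0.07. By limma 0 passed the threshold and 3 had an unadjusted p under 0.05 (Slc40a1, Csf1 and Mfge8), all with higher KO means. Of all genes, 14.7% did so in either direction and 8.21% with KO higher. The groups of Slc40a1 and Csf1 did not overlap. Hp, the haptoglobin that Cd163 recognises, differed by -0.07 (SE 0.16), and Hmox1, the haem-degrading enzyme induced by that uptake, by -0.15 (SE 0.31). Mfge8, a bridge between dying cells and phagocytes, differed by 0.38 (SE 0.16), or by 0.25 as the mean of its probes.

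Markers of other cells that could hold these transcripts are given here by their summed background-corrected intensity per array. For comparison, the summed level of the 8 members was 1187 to 1548 in WT and 1759 to 2897 in KO. Large peritoneal macrophages also carry Marco and Timd4. Their 6 tested markers summed to 1764 to 1917 in WT and to 2280 to 4229 in KO. Lyz1 had the highest intensities in that sum, at log2 9.33 to 9.99 in WT and 9.97 to 11.35 in KO. Of these 6 markers, 4 had a higher KO mean and Selp and Icam2 a lower one, and none had groups that did not overlap. By limma 0 passed and 2 had an unadjusted p under 0.05, against 14.7% of all genes in either direction and 8.21% higher in KO. These were Lyz1 (0.77, SE 0.30), which resembles Lyz2 closely, and the transcription factor gene Gata6 (0.51, SE 0.22). Lyz1 was at 0.46 without KO replicate 4. Gata6, which defines these cells, had its lowest KO value, 8.25, in KO replicate 4, below WT replicate 2 at 8.45, and its difference was 0.14 as the mean of its probes. Fcna stands on that list and on the Kupffer cell list, and Alox15 and Itgam were not above the background bound on enough arrays. The part of these cells in the result was not tested.

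Markers of recruited monocytes and macrophages overlapped between the groups in their sum, which was 2818 to 4699 in WT and 1911 to 3761 in KO over 7 tested genes. Fn1, which hepatocytes also make, had the highest intensities in that sum and differed by -0.83 (SE 0.30). Of the 7 genes 5 had a higher KO mean, among them Lyz2 (0.59, SE 0.35, and 0.25 without WT replicate 3), and the median log2 difference was 0.25. None passed by limma, and Fn1 alone had an unadjusted p under 0.05, against 14.7% of all genes. The defining monocyte genes Ccr2 and Cx3cr1 were not above the background bound on enough arrays. Neutrophil markers ran from 374 to 1447 in WT, with WT replicate 1 the highest, and from 483 to 1040 in KO, with KO replicate 4 the highest. Dendritic cell markers ran from 616 to 1802 in WT and from 961 to 1381 in KO. Lymphocyte markers were at 78.9 to 102 in WT and 93.1 to 110 in KO over the 3 of 12 that were tested.

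The sum of sinusoidal endothelial markers overlapped between the groups, at 3184 to 4424 in WT and 3312 to 4836 in KO. Of 11 tested genes 7 had a higher KO mean and 0 passed by limma, with a median log2 difference of 0.06. Pecam1, an adhesion molecule of endothelium, had log2 intensities of 7.21, 6.93 and 6.91 in WT and 6.35, 6.86, 5.80 and 6.73 in KO. Every KO value lay below WT (-0.58, SE 0.24, limma adjusted p = 0.29), and the difference was -0.37 without KO replicate 3 and -0.33 as the mean of its probes. The sum of markers of stellate cells and fibroblasts overlapped too, at 3380 to 4611 and 4442 to 6158, with 4 of 11 KO means higher. The hepatocyte sum lay below WT in every KO sample, at 156579 to 170622 against 172530 to 180862 in WT. Trf and Apoa1 had the highest log2 WT means in that sum, 14.75 and 14.71, while the Alb probe was at 7.13. Of 15 hepatocyte genes 13 had a lower KO mean, with a median log2 difference of -0.13, and none had groups that did not overlap. By limma 0 passed the threshold and 0 had an unadjusted p under 0.05, against 14.7% of all genes. The part of the hepatocyte signal in the members' values was not tested.

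The genes whose array pattern was most like that of Marco, by Pearson's r over the 7 arrays, were Kifap3 (0.98), Bptf (0.98), Tmem88 (0.98), Msl1 (0.97) and Ctla2b (0.97). Those most like Vsig4 were Cpeb4 (0.96), Ginm1 (0.96), Golm1 (0.96), Snhg18 (0.96) and Slc40a1 (0.95). They are the top of 10433 named genes on 7 arrays and are given as a description. Slc40a1 was the only one of the 10 on a list of Kupffer cell genes used here, and no member was among them.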

How the data were processed

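The authors deposited linear probe intensities that had been normalized between arrays. The sorted values of the 7 columns coincide apart from small differences, as quantile normalization leaves them, and their lower end shows no subtracted background. Partek is named in the submitters' processing notes; for its role and version, sources used here were silent. A further table was not used because no label ties its 14 columns of values, 7 of them detection p, to a sample; the design fixed at the start allowed for this.

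Background was corrected here with normexp (offset 16, saddle-point method; limma 3.58.1, R 4.3.3) before taking log2. The upper bound of the background, 93.5, is the 0.95 quantile of a normal curve fitted below the most frequent intensity. Probes above it on at least 3 arrays were kept, 18891 of 45281, and the brightest kept probe stood for a gene. Names came from the platform annotation, which gave 1 symbol to 34885 probes, several to 18 and none to 10378. The groups were compared with limma's lmFit and eBayes and no covariates, and p-values were adjusted by Benjamini-Hochberg over all 13266 features tested (genes, or probes with no name). Genes were named by rule: all members, Ltbr, up to 4 genes of smallest p per list and the 5 most correlated with Marco and with Vsig4. Other list genes named (C1qa, C1qb, C1qc, Msr1, Mrc1, Nr1h3, Irf8, Spic, Hp and Hmox1) were chosen for their role, with their values seen. Trf, Apoa1, Alb, Selp and Icam2 were also named outside the rule, with their values seen. So were some genes not above the background bound on enough arrays, such as Siglec1 and Spi1. The members and lists were chosen with earlier results of these data known. The procedure was tested on simulated data whose noise was independent between genes. That test could not show how the procedure behaves where many genes shift together on an array. Precision is limited by the number of arrays; the median SE of a log2 difference was 0.19. Replicate numbers did not pair the samples: deviations of KO and WT samples of the same number correlated at -0.19, -0.04 and -0.30.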

Additional observations from a re-analysis of the deposited data

Results flagged for a closer look

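Among 37 sets of 4 KO values examined, 1 held a value far from the others. Slc40a1 had a log2 intensity of 11.84 in KO replicate 4, against 10.66 to 10.84 in the other KO samples, a gap of 0.85 of the group's whole range. Chance gives such a gap in about 5% of groups. KO replicate 4 was also the highest array for 6 of the 8 members, none of which passed that limit.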

How the results depend on the processing

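The number of genes called was 9 and depended on the processing. It was 4 without background correction, 19 with no filter, 1 among probes above the bound on all 7 arrays, 3 with the mean of a gene's probes, 2 with a trended and robust prior, 950 with array weights and 569 without KO replicate 3 and WT replicate 3, and from 2 to 5 with 1 array left out. The cause of these changes was not tested. The replicate block left KO replicate 4 in a block of its own, gave the same differences as leaving it out, and called 3 genes and 0 members.

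The 8 members gave 0 calls except 2 with array weights, Marco (1.80, adjusted p = 0.015) and Cd163 (0.68, adjusted p = 0.031), and 1, Marco, when replicate 3 of both groups was dropped (2.02, adjusted p = 0.022) or KO replicate 4 with WT replicate 3 (1.71, adjusted p = 0.046). The members whose groups did not overlap numbered from 3 to 5 with 1 array left out, 5 without WT replicate 1 and 4 without KO replicate 1. Leaving an array out cannot lower this number. The share of all genes under these settings was not counted, so the rise says nothing particular about the members. The members' median ran from 0.30 to 0.59 with 1 array left out and was 0.14 without KO replicate 4 and WT replicate 3. Of 160 values of single members under the alternatives, 3 changed sign. Clec4f went to -0.0080 without KO replicate 3 and WT replicate 3. Without KO replicate 4 and WT replicate 3, Csf1r went to -0.21 and Adgre1 to -0.054, and the monocyte and macrophage gene Lyz2 to -0.038. Alternatives that changed only the filter, the prior or the test left every member's difference as it was. Values under those alternatives could not change sign, so the 160 overstate how often the sign was put to a check. Marco, Vsig4 and Cd163 stayed above 0 under all the alternatives. Where arrays were left out this was fixed in advance, because their groups did not overlap with all 7 arrays. The only probe of Cd5l was above the background bound on 0 arrays, so its difference was not tested. The dim second probes of Csf1r and Cd163 were above the bound on 2 arrays and 1 array, so each gene rests on its brighter probe alone.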
